A study of Mus musculus with 16 samples.

Results

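The 36 genes described here encode enzymes that degrade amino acids in the liver, outside the branched-chain, urea cycle and methionine pathways. They were taken by gene symbol from a list of such enzymes, arranged by substrate. All 36 of 36 were found among the 51912 genes of the deposited count table, and all 36 were among the 14920 genes with enough counts to be tested. They fall into routes for alanine, aspartate and glutamate (5 genes), tyrosine (5), tryptophan (7), serine, threonine and glyoxylate (4), proline and ornithine (4), histidine (4), lysine (3), glycine (2) and cysteine and taurine (2).

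The liver is the main site where most amino acids other than the branched-chain ones are broken down. Aminotransferases move the amino group onto a keto acid, dehydratases and lyases remove it directly, and the carbon skeletons enter glucose production, ketone formation or the citric acid cycle. Many of these enzymes are known to respond to glucagon, glucocorticoids and insulin, so their transcripts are usually read together with the feeding state. Hepatocytes carry almost all of these routes, several of them more strongly near the portal vein.

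Livers came from male mice, 13 weeks old at harvest, kept at about 22 °C. They had eaten a control amino acid diet (Control AA) or a diet low in isoleucine (Low Ile), an essential branched-chain amino acid, for 3 weeks starting at 10 weeks of age. Tissue was frozen after a 16 h overnight fast or after refeeding, and there were 4 libraries in each of the 4 groups: control fasted, low isoleucine fasted, control refed and low isoleucine refed. The sources used here give neither strain nor length of refeeding. Nothing in the labels says in words that each library is a separate animal, so p-values measure the spread between these samples. Each group carries its own number in the labels, which cannot be told apart from the group.

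Total counts ran from 24368656 to 34002955 per library. The 36 genes together took 1.82% ± 0.0213 (SD, n = 4) of the counts in the control fasted group, 1.65% ± 0.136 in the low isoleucine fasted group, 1.47% ± 0.267 in the control refed group and 1.73% ± 0.0912 in the low isoleucine refed group. Of the genes that mark the feeding state, Fasn and Srebf1 rose and Pck1 and Ppargc1a fell with refeeding on both diets. The 7 tested hepatocyte markers, Alb among them, had counts in every library, and 5 pancreatic acinar markers summed to at most 0.289 CPM (TMM-normalised read counts scaled to library size). Control refed library 4 stood apart: its 8 pericentral markers summed to 5516 CPM (10735 to 11859 in the other 3), its 8 periportal markers to 5805 CPM (2994 to 4102), and its Kupffer cell (435 CPM), sinusoidal endothelial (343 CPM) and stellate cell sums (597 CPM) were also the highest. Values without that library are given beside each member whose call it changed. In whole liver, fewer cells of a type and less RNA per cell cannot be told apart.

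Per kilobase of merged exon, Hpd had the highest level of the 36 genes (1061 CPM per kb as the mean of the 4 groups), followed by Cdo1 (881), Oat (667), Tat (605) and Tdo2 (514). Sdsl (2.42 CPM per kb), Acmsd (5.49), Prodh (9.10) and Ido2 (12.3) had the lowest. Related enzymes differed widely in level. Got1 stood at 229 ± 70.4 and its mitochondrial counterpart Got2 at 108 ± 7.74 CPM per kb in the control fasted group, whereas in the control refed group Got1 stood at 74.4 ± 48.2 and Got2 at 105 ± 10.0 (SD, n = 4). Tdo2 stood at 700 ± 44.1 CPM per kb in the control fasted group and Ido2, which acts on the same substrate, at 13.2 ± 3.58.

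**Figure D1:**
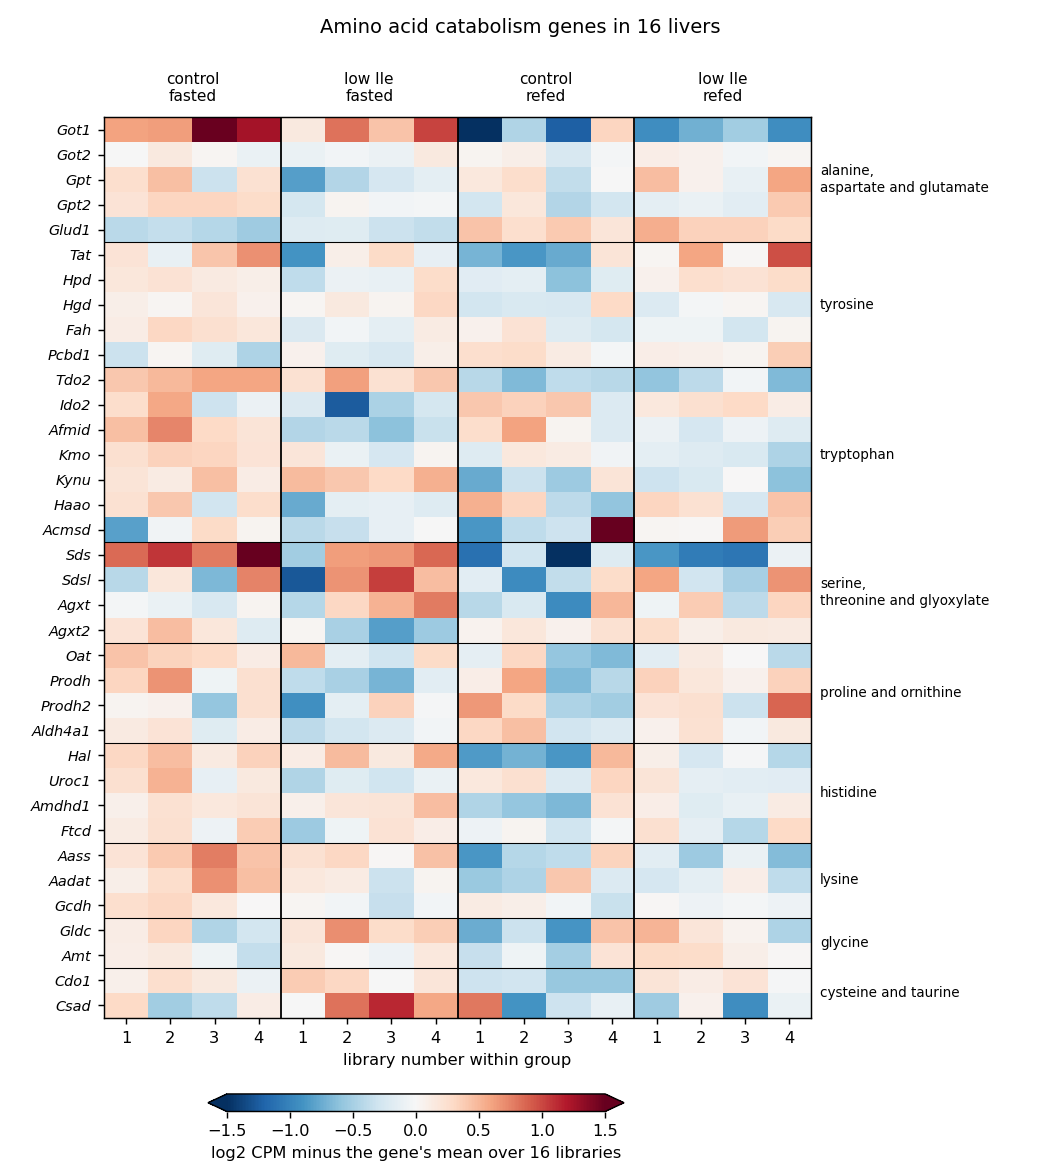
Each row is 1 of the 36 genes, ordered by substrate, and each column is 1 of 16 libraries in 4 groups. Colour is log2 CPM minus the gene's mean over the 16 libraries. Got1, Sds and Tdo2 are mostly red in the fasted columns and blue in the refed columns, Glud1 shows the reverse, and control refed library 4 departs from its group in Hal and Acmsd.

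Promoter sequence is shown for 3 members whose transcripts differed between fasted and refed livers: Got1 and Aass, which were lower in refed livers of control mice, and Glud1, which was higher. Each is the 250 bases before the RefSeq transcription start (GRCm38.p6), read 5′ to 3′ on the gene's strand, with capitals at matches to CCAAT or TGACG on either strand. The Got1 window is chr19:43524606-43524855, minus strand, with 5 CCAAT matches. Aass lies behind chr6:23132987-23133236, minus strand, which holds 2 CCAAT matches and 1 TGACG match, the core of the cyclic AMP response element. For Glud1 the window is chr14:34310477-34310726, plus strand, with 82% G and C and no match to any motif searched, and 17 of its bases lie in an exon of Shld2.
Got1: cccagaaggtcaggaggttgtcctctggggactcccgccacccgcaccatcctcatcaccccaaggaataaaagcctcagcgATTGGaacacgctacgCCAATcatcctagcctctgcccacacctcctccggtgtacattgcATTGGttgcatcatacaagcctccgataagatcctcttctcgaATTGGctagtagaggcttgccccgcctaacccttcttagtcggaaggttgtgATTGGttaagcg
Aass: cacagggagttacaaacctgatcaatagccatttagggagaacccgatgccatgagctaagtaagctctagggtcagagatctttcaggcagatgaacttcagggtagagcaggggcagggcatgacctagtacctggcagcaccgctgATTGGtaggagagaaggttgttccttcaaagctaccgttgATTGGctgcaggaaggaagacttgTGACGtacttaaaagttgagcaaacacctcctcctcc
Glud1: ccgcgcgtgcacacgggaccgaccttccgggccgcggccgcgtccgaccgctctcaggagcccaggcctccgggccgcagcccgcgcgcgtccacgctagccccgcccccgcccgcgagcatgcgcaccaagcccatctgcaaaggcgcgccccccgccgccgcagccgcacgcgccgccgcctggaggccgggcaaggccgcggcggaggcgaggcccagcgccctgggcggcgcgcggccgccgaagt

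Windows were given for 30 of the 36 genes, as 32 entries. Of these, 14 held CCAAT (33.8% of 32851 promoters in the table did), 8 held TATAAA (12.4%), 4 held TGACG (17.8%), 4 held CAAAGTC, the core of the HNF4 site (3.84%), 2 held AGAACA, the core of the glucocorticoid receptor site (16.1%), and 0 held TGTTTAC, the forkhead core (3.17%). No motif is contained in another, and both strands were searched. The 2 Agxt2 windows overlap, so its TATAAA and CAAAGTC matches are each counted in both. Some windows lie largely in exons: all 250 bases for Haao and Tdo2, 205 for Afmid, 197 for Kmo, 192 for Aadat and 146 for Got2. The exonic bases of the Afmid window belong to Tk1. These are letter matches in a short window, and Kynu, Cdo1, Ido2, Sdsl, Gpt and Sds had no entry.

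The first comparison asked how these transcripts differed between refed and fasted livers on the control diet. Of the 36 genes, 11 passed (adjusted p under 0.05 by edgeR's quasi-likelihood test with Benjamini-Hochberg adjustment across all 14920 genes), or 30.6%, against 17.1% of all genes tested. Lower in the refed livers were 9 (Got1, Gpt2, Hpd, Tdo2, Kynu, Sds, Amdhd1, Aass and Cdo1; 8.2% of all genes), and 2 were higher (Glud1 and Pcbd1; 8.91% of all genes). The median log2 fold change over the 36 genes was -0.24, against 0.01 over all genes tested, and 29 of the 36 values were negative. On the low isoleucine diet 10 passed, or 27.8%, against 21.4% of all genes. There, 5 were lower (Got1, Tdo2, Kynu, Sds and Csad; 11.8% of all genes) and 5 higher (Gpt, Glud1, Ido2, Agxt2 and Prodh; 9.6%), with a median of 0.05 against 0.02 over all genes and 19 positive values. Groups did not overlap in 8 genes on the control diet, where 19.1% of all genes did not overlap, and in 14 with low isoleucine, where 24.6% did not.

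On both diets Got1, Tdo2, Kynu and Sds fell and Glud1 rose. A further 6 passed on the control diet alone, 5 on the low isoleucine diet alone and 20 on neither. Passing on 1 diet and not on the other does not show that the diets differ, which only the interaction tests. Without control refed library 4, 13 genes passed on the control diet, where 18.2% of all genes then did: Tat (-1.10), Hgd (-0.35) and Hal (-1.13) were added and Gpt2 was lost. In the fit without it Aass (-0.61) and Hal (-0.49) also passed on the low isoleucine diet, against 23.9% of all genes. Scaling by library size alone moved the median of all genes to 0.14 (control diet) and 0.13 (low isoleucine diet). The calls then split into 2 higher and 4 lower with control diet, against 6 higher and 3 lower with low isoleucine. Relative to that median no called gene changed direction. Zonation markers are given beside these counts as sums, and few single markers passed. Single genes weigh heavily in the sums (Cyp2e1 reached 16291 CPM and Pck1 4290 CPM). Periportal markers, Pck1 among them, summed to 7823 to 8713 CPM in control fasted and 2994 to 5805 CPM in control refed livers (1 of 8 fell), and to 5323 to 7408 and 3448 to 4530 CPM in the low isoleucine groups (2 of 8 fell). Pericentral markers summed to 11850 to 14556 and 5516 to 11859 CPM in the control groups (1 of 8 rose and 1 fell), and to 10360 to 18086 and 11152 to 13799 CPM in the low isoleucine groups (2 of 8 rose). Of all genes, 8.2% fell and 8.91% rose on the control diet, and 11.8% fell and 9.6% rose on the low isoleucine diet. The part of the zonation markers in the members' values was not tested.

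**Figure D2:**
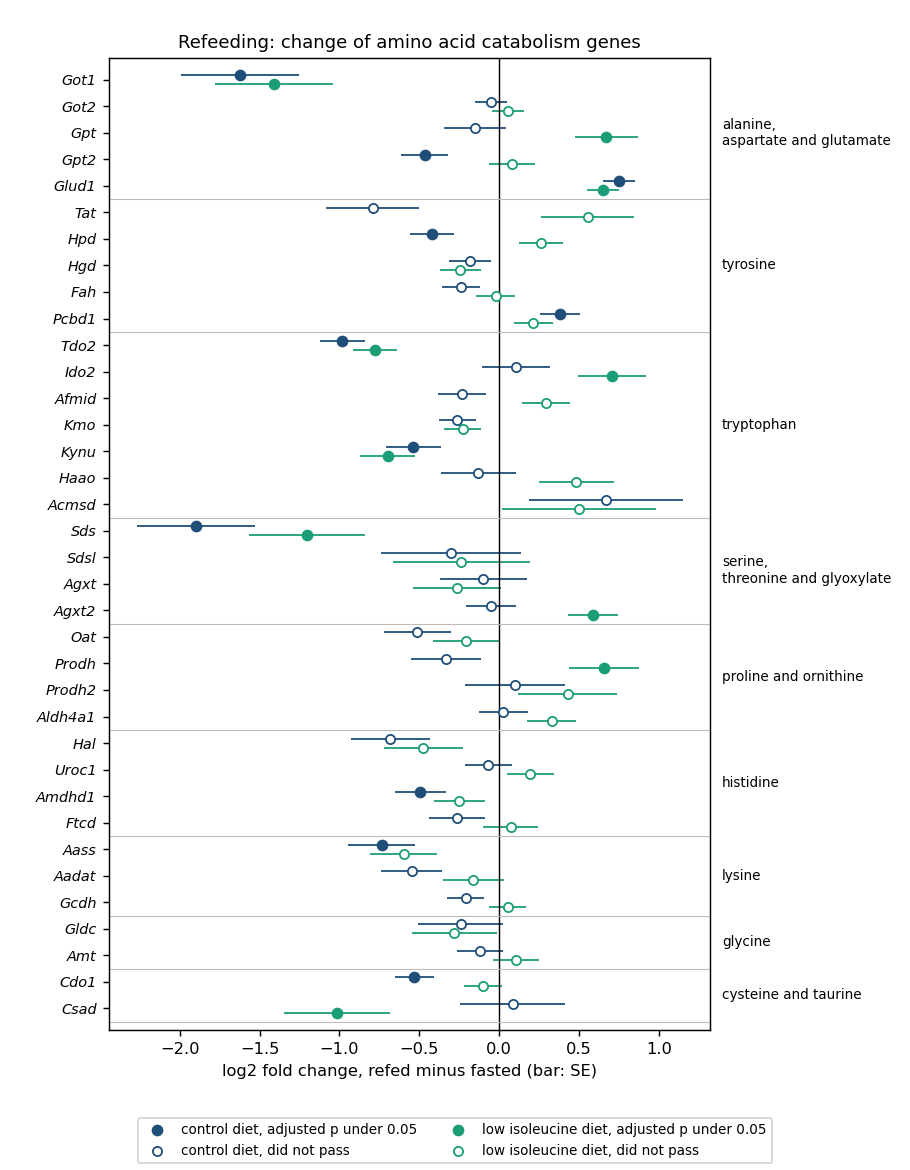
Points are log2 fold changes (refed minus fasted) of the 36 genes, with bars of 1 standard error, on the control and low isoleucine diets. Filled points passed at an adjusted p under 0.05. Got1 and Sds lie farthest to the left on both diets, and Glud1 lies to the right on both.

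Among the enzymes of alanine, aspartate and glutamate, Got1 showed the largest refeeding difference and Glud1 the opposite direction. Got1, the cytosolic aspartate aminotransferase of the malate-aspartate shuttle (ENSMUSG00000025190, chr19:43499752-43524605, GENCODE M21 on GRCm38), stood at 430, 437, 791 and 672 CPM in the control fasted libraries and at 74.8, 207, 121 and 353 CPM in the control refed libraries. Low isoleucine libraries stood at 314, 498, 381 and 571 CPM fasted and at 148, 171, 198 and 149 CPM refed. All refed libraries lay below all fasted libraries on each diet. Got1 fell by 1.62 on the log2 scale on the control diet (SE 0.371, adjusted p = 0.0075), 3.08-fold lower, and by 1.41 on the low isoleucine diet (SE 0.369, adjusted p = 0.013). Without control refed library 4, whose 353 CPM was the highest of its group, the control diet value was -2.12. Its mitochondrial counterpart Got2 ran from 437 to 571 CPM over all 16 libraries, and its log2 fold changes were -0.05 and 0.06 (adjusted p = 0.8 and 0.755).

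Glud1, the mitochondrial glutamate dehydrogenase that releases ammonia from glutamate (ENSMUSG00000021794, chr14:34310727-34345265), stood at 676, 697, 663 and 614 CPM in the control fasted libraries and at 1196, 1063, 1174 and 1014 CPM in the control refed libraries. Low isoleucine libraries read 778, 783, 710 and 690 CPM fasted and 1297, 1131, 1137 and 1090 CPM refed. Every refed library of a diet lay above every fasted one, with little spread. Glud1 rose by 0.75 on the control diet (SE 0.100, adjusted p = 0.000127) and by 0.65 on the low isoleucine diet (SE 0.100, adjusted p = 0.000254). These calls were made under every alternative tried.

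The alanine aminotransferases, which interconvert alanine and pyruvate, differed in which diet passed. Gpt stood at 79.0, 103, 117 and 126 CPM in the low isoleucine fasted libraries and at 192, 146, 129 and 211 CPM in the low isoleucine refed libraries. These groups did not overlap, and Gpt rose by 0.67 on that diet (SE 0.196, adjusted p = 0.0219). On the control diet its libraries overlapped, at 167, 191, 112 and 164 CPM fasted and 156, 168, 108 and 139 CPM refed, with a log2 fold change of -0.15 (adjusted p = 0.674). The Gpt call was lost without low isoleucine fasted library 1 or 2, or low isoleucine refed library 1 or 4 (adjusted p from 0.056 to 0.0801).

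Gpt2, the mitochondrial form, stood at 814, 884, 885 and 860 CPM in the control fasted libraries and at 586, 795, 523 and 587 CPM in the control refed libraries. The groups did not overlap, and Gpt2 fell by 0.47 (SE 0.145, adjusted p = 0.0351). Gpt2 in the low isoleucine groups read 590, 729, 691 and 696 CPM fasted and 639, 659, 634 and 929 CPM refed, groups that overlapped, with a log2 fold change of 0.08 (adjusted p = 0.747). Leaving out any of the 4 control fasted libraries, or control refed library 1, 3 or 4, ended the control diet call (adjusted p from 0.0562 to 0.11), as did scaling by library size alone (-0.35, adjusted p = 0.146) and a fit of only the compared groups (0.0604).

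In tyrosine breakdown, 2 of the 5 genes passed on the control diet (17.1% of all genes did), compared with 0 on the low isoleucine diet (21.4%). Pcbd1, which recycles the biopterin cofactor of phenylalanine hydroxylase, stood at 115, 147, 127 and 104 CPM in the control fasted libraries and at 171, 174, 157 and 141 CPM in the control refed libraries. The highest fasted library lay above the lowest refed one. Pcbd1 rose by 0.38 (SE 0.124, adjusted p = 0.0448), and the call was lost under 14 of 27 alternatives, 11 of them the removal of 1 library (adjusted p from 0.0504 to 0.142) and the others no filter on low counts (0.0724), only the compared groups (0.0881) and the replicate block (0.0691). Those 11 were control fasted 1, 3 and 4, control refed 1, 2 and 3, low isoleucine fasted 2 and 4, and low isoleucine refed 1, 2 and 3. Pcbd1 in the low isoleucine groups ran from 122 to 153 CPM fasted and from 148 to 187 CPM refed, a log2 fold change of 0.21 (adjusted p = 0.245).

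Hpd, which forms homogentisate, also passed on the control diet, but it fell outside the naming rule and is singled out after its values were seen. It stood at 2505, 2579, 2449 and 2367 CPM in the control fasted libraries and at 1981, 2008, 1453 and 1956 CPM in the control refed libraries. All refed libraries were lower, and Hpd fell by 0.42 (SE 0.138, adjusted p = 0.0458). The call was lost under 17 of 27 alternatives, including the removal of any 1 of 13 libraries (adjusted p from 0.051 to 0.145; removing control refed 4 or low isoleucine fasted 1 or 4 kept it) and library size alone (-0.29, adjusted p = 0.237). Low isoleucine libraries ran from 1707 to 2703 CPM fasted and from 2319 to 2700 CPM refed, with a log2 fold change of 0.26 (adjusted p = 0.201).

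Tat, the tyrosine aminotransferase that starts this route and a textbook glucocorticoid and cyclic AMP target, did not pass and was likewise picked out after its values were seen. It stood at 1565, 1255, 1818 and 2180 CPM in the control fasted libraries and at 840, 741, 802 and 1554 CPM in the control refed libraries, where library 4 alone overlapped the fasted range. The low isoleucine libraries read 730, 1447, 1659 and 1249 CPM fasted and 1387, 2045, 1371 and 2657 CPM refed. Its log2 fold change was -0.79 on the control diet (adjusted p = 0.0747) and 0.55 on the low isoleucine diet (adjusted p = 0.198). On the control diet Tat passed without control refed library 4 (-1.10, adjusted p = 0.0118) or without low isoleucine fasted library 1 (0.0468). With all libraries kept it passed there by the DESeq2 Wald test (adjusted p = 0.0414) and with the replicate block (0.0311). Hgd and Fah, the later enzymes of homogentisate and fumarylacetoacetate breakdown, had values from -0.24 to -0.02 on the 2 diets and did not pass, although without control refed library 4 Hgd did on the control diet (-0.35, adjusted p = 0.0333).

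In tryptophan breakdown the first enzyme fell on both diets. Tdo2, the liver tryptophan dioxygenase that commits tryptophan to the kynurenine route (ENSMUSG00000028011, chr3:81957090-81976202), stood at 2505, 2652, 2849 and 2862 CPM in the control fasted libraries and at 1423, 1201, 1452 and 1423 CPM in the control refed libraries. In the low isoleucine groups it read 2218, 2887, 2220 and 2501 CPM fasted and 1257, 1442, 1839 and 1192 CPM refed. No refed library reached a fasted one on either diet. Tdo2 fell by 0.98 on the control diet (SE 0.140, adjusted p = 0.0002), 1.98-fold lower, and by 0.78 on the low isoleucine diet (SE 0.140, adjusted p = 0.000889), and these calls held under every alternative tried.

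Kynu, the kynureninase that cuts alanine from kynurenine and hydroxykynurenine, stood at 186, 178, 223 and 177 CPM in the control fasted libraries and at 96.9, 130, 112 and 187 CPM in the control refed libraries. Library 4 of the refed group overlapped the fasted range. Kynu in the low isoleucine groups read 226, 216, 201 and 235 CPM fasted and 132, 139, 164 and 107 CPM refed, without overlap. Kynu fell by 0.54 on the control diet (SE 0.172, adjusted p = 0.0408) and by 0.70 on the low isoleucine diet (SE 0.172, adjusted p = 0.00822). The second call held under every alternative. The first was lost under 15 of 27, among them removal of any control fasted library, of control refed 1, 2 or 3, of low isoleucine fasted 2 or 4, or of low isoleucine refed 1 or 2 (adjusted p from 0.0509 to 0.118), and library size alone (-0.38, adjusted p = 0.21), whereas without control refed library 4 it was -0.76 (adjusted p = 0.00186).

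Ido2, a second tryptophan dioxygenase at far lower level, stood at 37, 18.1, 30.9 and 36 CPM in the low isoleucine fasted libraries and at 48.1, 50.8, 53.2 and 46.5 CPM in the low isoleucine refed libraries. The groups did not overlap, and Ido2 rose by 0.70 (SE 0.214, adjusted p = 0.0265). Control libraries read 51.9, 64.3, 34.8 and 40.5 CPM fasted and 56.9, 54.8, 56.9 and 37.2 CPM refed, overlapping, with a log2 fold change of 0.10 (adjusted p = 0.813). Removing low isoleucine fasted 2 or 3, or low isoleucine refed 2 or 3, ended the call (adjusted p from 0.0534 to 0.0712). Of the other 4 tryptophan genes, Afmid, Kmo, Haao and Acmsd, 0 passed in either refeeding comparison (17.1% of all genes did on the control and 21.4% on the low isoleucine diet). Acmsd, which diverts the route away from NAD, ran from 7.48 to 11.1 CPM in 3 control refed libraries and stood at 52.8 CPM in library 4, and its value turned from 0.67 to -0.42 without that library.

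Sds, the serine dehydratase that makes pyruvate from serine for glucose production (ENSMUSG00000029597, chr5:120476526-120483932), stood at 87.8, 103, 83.4 and 181 CPM in the control fasted libraries and at 22.3, 39.4, 17.1 and 42.7 CPM in the control refed libraries. Its low isoleucine libraries read 33.7, 74.8, 76.3 and 88.1 CPM fasted and 26.5, 23.5, 23.0 and 45.9 CPM refed. Control groups did not overlap, whereas low isoleucine fasted library 1 lay within the refed range. Sds fell by 1.90 on the control diet (SE 0.369, adjusted p = 0.00274), 3.73-fold lower, and by 1.20 on the low isoleucine diet (SE 0.363, adjusted p = 0.0279). The second call was lost without low isoleucine fasted 2, 3 or 4, or low isoleucine refed 1, 2 or 3 (adjusted p from 0.0607 to 0.0794), with library size alone (0.0586) and with no filter on low counts (0.087). Exons of Sds overlap those of Plbd2 on the opposite strand, whose mean count was 82.8% of that of Sds, and whether counting used strand is not stated in the labels or headers. Plbd2 itself had log2 fold changes of -0.26 and -0.38 on the 2 diets (adjusted p = 0.419 and 0.186). Exons of Gm15690, also on the opposite strand, overlap those of Sds, and its mean count was 3.23% of that of Sds. Gm15690 had -1.07 on the control diet (adjusted p = 0.101) and -1.53 on the low isoleucine diet (adjusted p = 0.0216). The part of Plbd2 and Gm15690 reads in the Sds values was not tested.

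Agxt2, a mitochondrial aminotransferase of alanine and glyoxylate, stood at 142, 99.1, 78.5 and 95.8 CPM in the low isoleucine fasted libraries and at 169, 148, 154 and 153 CPM in the low isoleucine refed libraries. These groups did not overlap, and Agxt2 rose by 0.59 (SE 0.157, adjusted p = 0.0129), a call made under every alternative. Control libraries read 161, 193, 157 and 121 CPM fasted and 144, 157, 146 and 163 CPM refed, with overlap and a log2 fold change of -0.05 (adjusted p = 0.884). Agxt, the peroxisomal enzyme for glyoxylate, had values of -0.10 and -0.27, and Sdsl, a homologue of Sds, had -0.30 and -0.24. Neither passed.

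For proline and ornithine, 1 of 4 genes passed, on the low isoleucine diet, a share near the 21.4% of all genes that did. Prodh, the proline dehydrogenase, stood at 52.1, 48.7, 41.9 and 60.9 CPM in the low isoleucine fasted libraries and at 86.6, 76.5, 71.4 and 86.7 CPM in the low isoleucine refed libraries. All refed libraries were higher, and Prodh rose by 0.66 (SE 0.221, adjusted p = 0.0433). In the control groups it read 85.3, 109, 65.3 and 80.6 CPM fasted and 72.9, 103, 43.0 and 51.3 CPM refed, with overlap and a log2 fold change of -0.33 (adjusted p = 0.351). The call was lost on removing control fasted 1 or 4, control refed 1, low isoleucine fasted 1, 2 or 3, or low isoleucine refed 1, 2 or 4 (adjusted p from 0.0504 to 0.115), and with no filter on low counts (0.083). Oat (-0.51 and -0.21), Prodh2 (0.10 and 0.43) and Aldh4a1 (0.03 and 0.33), enzymes of ornithine, hydroxyproline and glutamate semialdehyde, did not pass on the control or low isoleucine diet. Without control refed library 2, Oat (-0.74, adjusted p = 0.0181) and Prodh (-0.61, adjusted p = 0.0387) passed on the control diet.

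The histidine route had 1 called gene, on the control diet, where 17.1% of all genes passed. Amdhd1, the imidazolonepropionase, stood at 104, 116, 110 and 113 CPM in the control fasted libraries and at 72.0, 65.8, 61.8 and 115 CPM in the control refed libraries. Library 4 of the refed group lay in the fasted range and the other 3 below it. Amdhd1 fell by 0.49 (SE 0.160, adjusted p = 0.0428), and without library 4 the value was -0.74 (adjusted p = 0.000374). It was lost under 13 of 27 alternatives, 10 of them removal of 1 library (any control fasted, control refed 1, 2 or 3, low isoleucine fasted 2 or 3, or low isoleucine refed 1, adjusted p from 0.051 to 0.132) and 1 of them library size alone (-0.34, adjusted p = 0.295). Low isoleucine libraries read 104, 112, 113 and 136 CPM fasted and 106, 86.6, 91.4 and 107 CPM refed, groups that overlapped, with a log2 fold change of -0.25 (adjusted p = 0.296). Hal, the histidine ammonia-lyase that opens the route, showed the same split, with 166, 182, 163 and 418 CPM in the control refed libraries against 328 to 414 CPM fasted. Its value was -0.68 (adjusted p = 0.0702), and -1.13 (adjusted p = 0.000114) without library 4. With all libraries kept, Hal passed on the control diet by limma-voom (adjusted p = 0.0273) and by the DESeq2 Wald test (0.0423). On the low isoleucine diet Hal had -0.47 (adjusted p = 0.193), and -0.49 (adjusted p = 0.0146) in the fit without control refed library 4. It also passed there with only the compared groups (adjusted p = 0.0411). Control refed library 4 had the highest periportal and lowest pericentral marker sum of its group, and the part of this in the Hal and Amdhd1 values was not tested.

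Aass, the bifunctional enzyme that opens lysine breakdown (ENSMUSG00000029695, chr6:23072173-23132986), stood at 478, 548, 707 and 562 CPM in the control fasted libraries and at 228, 309, 319 and 524 CPM in the control refed libraries. Again library 4 alone reached the fasted range. Aass fell by 0.73 (SE 0.210, adjusted p = 0.0232), and by 1.01 without library 4. The call was lost without control fasted 3 or control refed 1, 2 or 3 (adjusted p from 0.0617 to 0.0749), with library size alone (-0.57, adjusted p = 0.104) and with only the compared groups (0.0721). On the low isoleucine diet the libraries read 487, 517, 420 and 565 CPM fasted and 373, 286, 390 and 265 CPM refed and did not overlap, but the value of -0.60 missed the threshold (adjusted p = 0.0506). It passed in the fit without control refed library 4 (-0.61, adjusted p = 0.0109) and without control fasted 3, control refed 1, low isoleucine fasted 3 or low isoleucine refed 3 (adjusted p from 0.0285 to 0.0499), as well as by the DESeq2 Wald test (0.0303), by limma-voom (0.0439), with only the compared groups (0.016) and with a filter of 1 CPM in 4 libraries (0.0496). Aadat (-0.55 and -0.16) and Gcdh (-0.21 and 0.05), later enzymes of lysine breakdown, did not pass. Nor did the glycine cleavage genes Gldc (-0.24 and -0.28) and Amt (-0.12 and 0.10). On the control diet Aadat passed without control refed library 3 (-0.79, adjusted p = 0.00532). With all libraries kept it passed there by the DESeq2 Wald test (adjusted p = 0.0467), by limma-voom (0.0451) and with the replicate block (0.0478).

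Cysteine and taurine genes passed on different diets. Cdo1, the cysteine dioxygenase that clears excess cysteine (ENSMUSG00000033022), stood at 1502, 1694, 1578 and 1333 CPM in the control fasted libraries and at 1148, 1164, 958 and 957 CPM in the control refed libraries. The groups did not overlap, and Cdo1 fell by 0.53 (SE 0.120, adjusted p = 0.00615), a call made under every alternative. In the low isoleucine groups it read 1858, 1764, 1413 and 1609 CPM fasted and 1631, 1533, 1634 and 1402 CPM refed, overlapping, with a log2 fold change of -0.10 (adjusted p = 0.612).

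Csad, which makes hypotaurine from cysteine sulfinate, stood at 150, 264, 328 and 225 CPM in the low isoleucine fasted libraries and at 104, 157, 78.7 and 140 CPM in the low isoleucine refed libraries. Fasted library 1 overlapped the refed range, and Csad fell by 1.01 (SE 0.331, adjusted p = 0.0396). Control libraries read 184, 105, 115 and 163 CPM fasted and 260, 80.6, 121 and 139 CPM refed, with overlap and a log2 fold change of 0.08 (adjusted p = 0.908). The call was lost without low isoleucine fasted 2, 3 or 4, or low isoleucine refed 1, 3 or 4 (adjusted p from 0.0609 to 0.115), with library size alone (0.0791), with no filter on low counts (0.116) and with the replicate block (0.0606). Exons of Csad overlap those of Zfp740 on the opposite strand, whose mean count was 18.9% of that of Csad and which fell by 0.75 on the same diet (adjusted p = 0.00186). On the control diet, where Csad had 0.08, Zfp740 also fell, by 0.54 (adjusted p = 0.02). The part of Zfp740 reads in the Csad value was not tested.

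**Figure D3:**
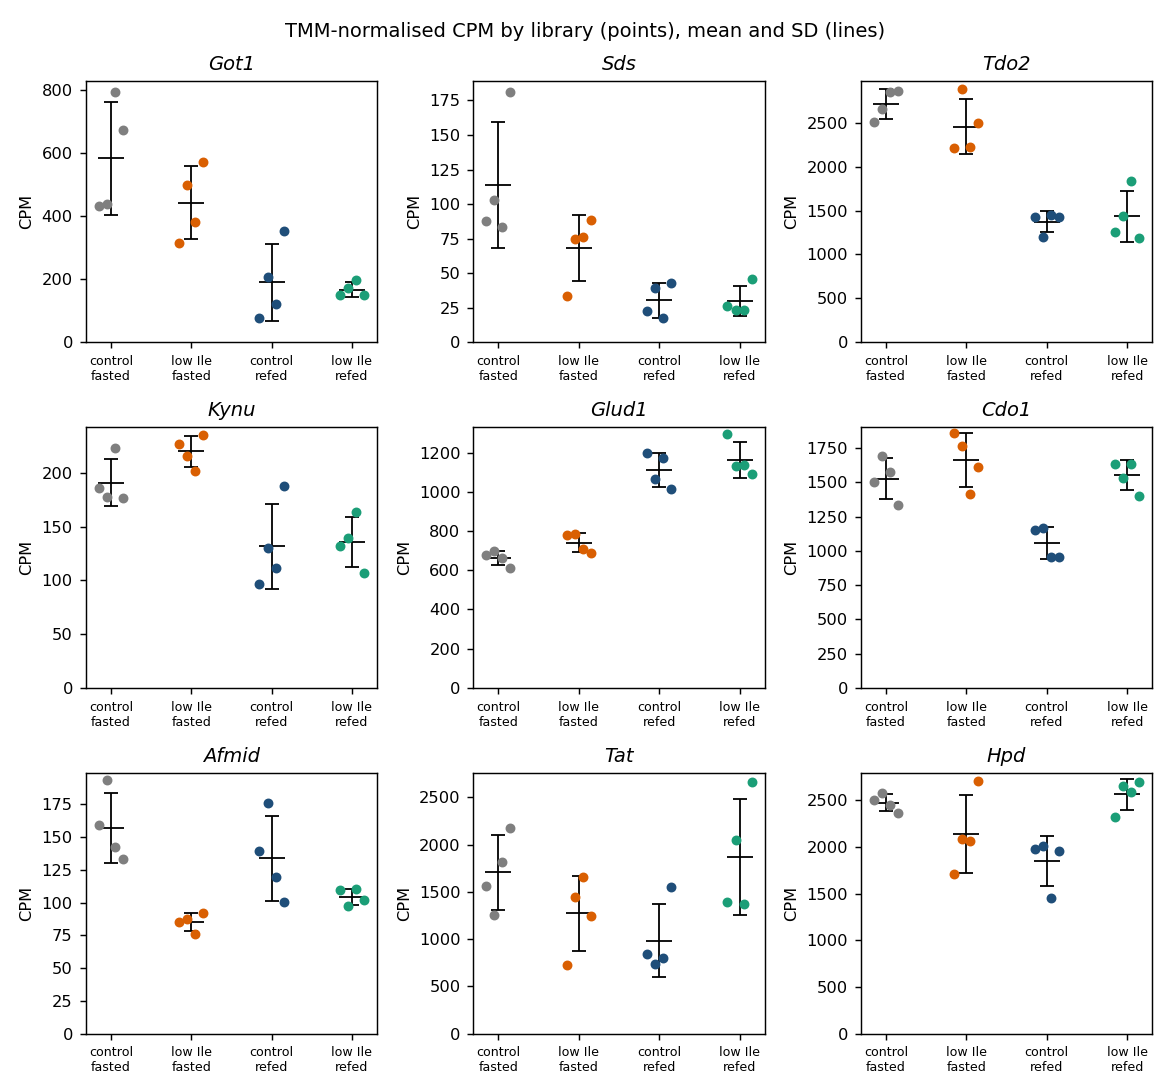
Each point is 1 library's TMM-normalised CPM for 9 genes in the 4 groups, with a horizontal mark at the mean and bars of 1 SD (n = 4), on axes that start at 0. Tdo2 and Glud1 separate by feeding state without overlap, Afmid is low in the low isoleucine fasted libraries (75.8 to 92.3 CPM), and in control refed livers Tat has 1 library at 1554 CPM above 3 between 741 and 840 CPM.

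The next comparison asked what the low isoleucine diet changed at a fixed feeding state. In fasted livers 1 of 36 genes passed by edgeR, Afmid, which was lower on the low isoleucine diet, against 0.771% of all genes tested, 0.442% lower. By the DESeq2 Wald test 3 were lower, Afmid, Agxt2 and Prodh, where 1.34% of all genes passed. The median over the 36 genes was -0.21 against 0.01 over all genes, with 24 negative values. Unadjusted p was under 0.05 for 11, against 10.8% of all genes, and groups did not overlap for 4, against 8.07%. In refed livers 0 passed by edgeR (0.174% of all genes did) and by limma-voom, and 1, Cdo1, by the DESeq2 Wald test (0.649% of all genes did), and 6 had an unadjusted p under 0.05, against 9.76% of all genes. There the median was 0.06 against -0.01, with 22 positive values and 2 genes whose groups did not overlap, against 4.44% of all genes. Averaged over feeding states, 1 passed by edgeR, again Afmid, against 1.51% of all genes, 0.938% lower. By the DESeq2 Wald test Kmo (-0.29, adjusted p = 0.0116) and Cdo1 (0.34, adjusted p = 0.00187) passed too, where 2.19% of all genes did. Cdo1 also passed on average with library size alone (0.35, adjusted p = 0.04) and with the replicate block (0.34, adjusted p = 0.0495). Without control refed library 4, Amdhd1 was higher on the low isoleucine diet in refed livers (0.54, adjusted p = 0.0352, from 0.31 and 0.551 with it; 0.592% of all genes passed) and averaged over feeding states (0.30, adjusted p = 0.0388, from 0.19 and 0.474; 3.14% of all genes). Without low isoleucine fasted library 1, Agxt2 was lower in fasted livers (-0.79, adjusted p = 0.00927) and, with Kmo, on average (-0.38 and -0.33, adjusted p = 0.0381 and 0.0421), and without low isoleucine fasted library 3 Cdo1 was higher on average (0.37, adjusted p = 0.0478).

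Afmid, the arylformamidase that makes kynurenine from formylkynurenine (ENSMUSG00000017718, chr11:117825924-117839908), stood at 159, 193, 143 and 133 CPM in the control fasted libraries and at 85.5, 87.6, 75.8 and 92.3 CPM in the low isoleucine fasted libraries. All 4 low isoleucine libraries were lower. In refed livers it read 139, 176, 119 and 101 CPM for control against 109, 97.2, 110 and 102 CPM for low isoleucine, groups that overlapped. Afmid was lower by a log2 fold change of -0.88 in fasted livers (SE 0.151, adjusted p = 0.0188), 1.84-fold lower, and the value in refed livers was -0.36 (SE 0.150, adjusted p = 0.454). Averaged over feeding states it was -0.62 (SE 0.106, adjusted p = 0.00676), under every alternative tried. The fasted call was lost without control fasted 2 (adjusted p = 0.0573), low isoleucine fasted 2 (0.0613) or low isoleucine fasted 3 (0.0729).

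Measured facts stand beside the Afmid result. Its exons overlap those of Tk1, a thymidine kinase gene on the opposite strand whose mean count was 11.9% of that of Afmid, and Tk1 had a value of -1.08 in fasted livers (SE 0.251, adjusted p = 0.0624). Afmid exons also overlap those of Gm20708 on the same strand, whose mean count was 5.16% of that of Afmid. Gm20708 had -0.77 in fasted livers (SE 0.691, adjusted p = 0.784). The 10 Kupffer cell markers summed to 306 to 402 CPM in the control fasted libraries and 197 to 285 CPM in the low isoleucine fasted libraries, with 0 of 10 passing. Averaged over feeding states 1 of the 10, Clec4f, was lower (-0.54, adjusted p = 0.0461), where 0.938% of all genes were lower. There 8 of the 10 had an unadjusted p under 0.05, a level whose share over all genes is not given here. Of 3 erythroid markers tested in fasted livers, where 0.771% of all genes passed, Hbb-bs was higher (1.00, adjusted p = 0.0275). All 3 had groups that did not overlap (8.07% of all genes), Hba-a1 in the same direction and Alas2 in the opposite one. Periportal sums were 7823 to 8713 CPM in the control fasted and 5323 to 7408 CPM in the low isoleucine fasted libraries, with 0 of 8 passing. Hepatocyte markers summed to 67262 to 102008 CPM and 101685 to 122794 CPM in the same groups, with 0 of 7 passing. The part of these in the Afmid value was not tested. In the authors' deposited table for fasted mice, which holds 14211 genes, Afmid had a log2 fold change of -0.89 with an adjusted p of 0.066, and 0 of the 36 genes passed.

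Cdo1 had the smallest p of the 36 genes in refed livers. The control refed and low isoleucine refed libraries did not overlap, with 957 to 1164 CPM against 1402 to 1634 CPM, a log2 fold change of 0.55 (SE 0.120, adjusted p = 0.0795) that missed the threshold. In the authors' deposited table for refed mice Cdo1 had 0.55 and an adjusted p of 0.0475, the only 1 of the 36 genes to pass there. Hpd also did not overlap in refed livers, with 1453 to 2008 CPM on the control diet against 2319 to 2700 CPM (log2 fold change 0.47, adjusted p = 0.238). In fasted livers Gpt2 (-0.35, adjusted p = 0.368), Prodh (-0.74, adjusted p = 0.158) and Kmo (-0.31, adjusted p = 0.293), the kynurenine monooxygenase, had every low isoleucine library below every control library without passing by edgeR. Agxt2, whose groups overlapped, had -0.61 (adjusted p = 0.0948) by edgeR. By the DESeq2 Wald test both Prodh (-0.73, adjusted p = 0.0488) and Agxt2 (-0.60, adjusted p = 0.0131) passed in fasted livers.

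**Figure D4:**
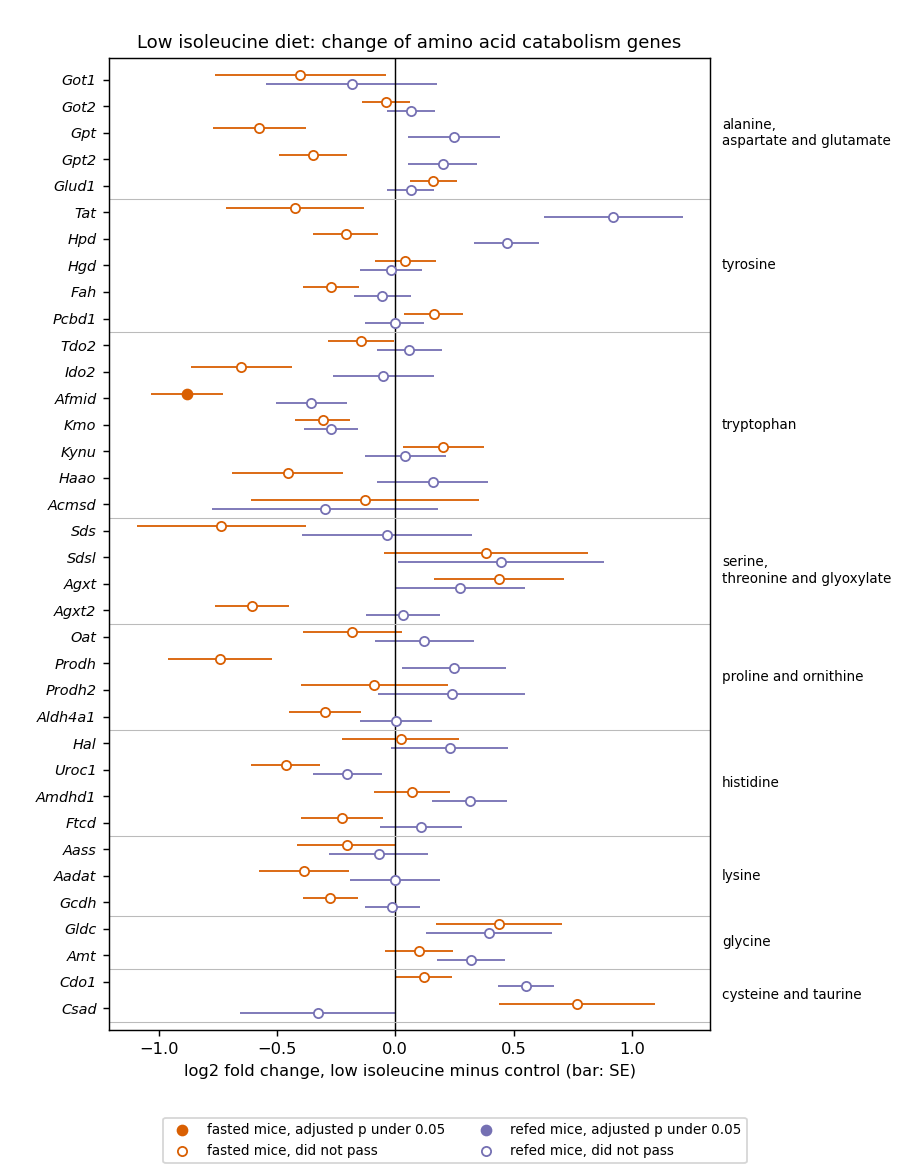
Points are log2 fold changes (low isoleucine minus control) of the 36 genes in fasted and in refed livers, with bars of 1 standard error. The single filled point is Afmid in fasted livers at -0.88.

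The last comparison asked whether the refeeding change differed between diets, as an interaction in the same model. By edgeR 0 of the 36 genes passed, as did 0% of all genes tested. Limma-voom and the DESeq2 Wald test also called 0 of the 36, the latter with 0.127% of all genes called. At an unadjusted p under 0.05 there were 9, or 25.0%, against 6.22% of all genes, and 8 of the 9 were positive (2.75% of all genes were), meaning a higher value of refed minus fasted on the low isoleucine diet. The 9 were Tat (1.35, unadjusted p = 0.00479, adjusted p = 0.546), Hpd (0.68, 0.00291, 0.519), Prodh (0.99), Gpt (0.82), Agxt2 (0.64), Gpt2 (0.55), Afmid (0.52), Cdo1 (0.43) and Csad (-1.10). All 9 had an adjusted p of at least 0.519. The median over the 36 genes was 0.25 against -0.02 over all genes, and 28 were positive.

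On refeeding 16 of the 36 genes had negative values on both diets and 6 had positive values on both. A negative value on the control diet and a positive one on the low isoleucine diet was found for 13. The 2 refeeding comparisons share no library, but the 36 genes come from the same libraries and are not independent of each other. Over 26 alternatives, the 16 removals of 1 library included, between 25 and 33 of the 36 interaction values were positive and 7 to 11 had an unadjusted p under 0.05. Without control refed library 4 there were 33 positive values, 11 with an unadjusted p under 0.05 and a median of 0.35, and Acmsd turned from -0.17 to 0.91.

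**Figure D5:**
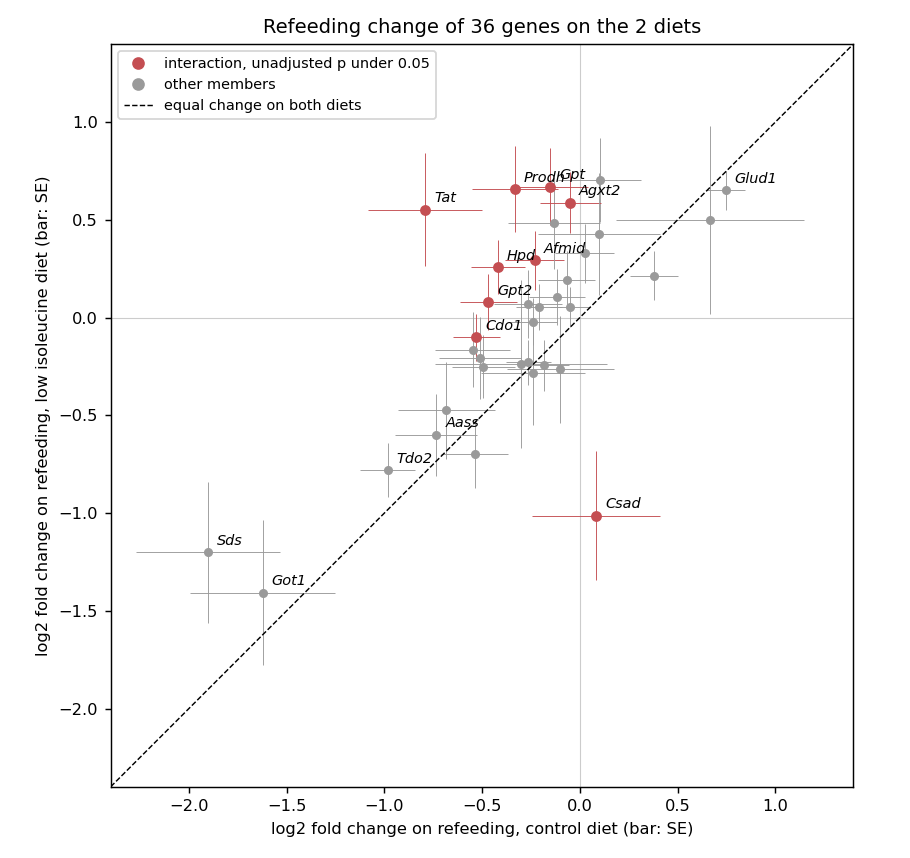
Each point is 1 of the 36 genes, with its log2 fold change on refeeding for the control diet (horizontal) against the low isoleucine diet (vertical) and bars of 1 standard error. Of the 36 points, 28 lie above the dashed line of equal change, and red points are the 9 with an unadjusted interaction p under 0.05, none of which passed after adjustment.

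Other enzymes of the same routes, 27 listed and 24 tested, gave 5 calls on each diet, a share near that of all genes (17.1% and 21.4%), and 0 in the diet and interaction comparisons. Hykk, the hydroxylysine kinase, fell by 1.46 on the control diet (SE 0.139, adjusted p = 5.33e-06) and by 2.02 on the low isoleucine diet (SE 0.142, adjusted p = 1.67e-07). Dhtkd1, a subunit of the oxoadipate dehydrogenase of lysine and tryptophan breakdown, fell by 0.97 on the control diet (adjusted p = 0.000552). Kyat1, a kynurenine aminotransferase, rose by 0.67 on the control diet (adjusted p = 0.0305) and by 1.64 on the low isoleucine diet (adjusted p = 3.9e-05). Fahd1 rose by 0.50 on the control diet (adjusted p = 0.0264), and Qprt, which feeds quinolinate into NAD, rose by 0.47 on the low isoleucine diet (adjusted p = 0.0122), as did Shmt1, a serine hydroxymethyltransferase, by 0.52 (adjusted p = 0.00529). Kyat1 and Qprt were thus opposite in sign to Tdo2 and Kynu on the low isoleucine diet.

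Known regulators of hepatic amino acid catabolism were examined next. Of 17 tested, 9 fell and 1 rose on the control diet, where 8.2% of all genes fell and 8.91% rose, and 7 fell and 1 rose on the low isoleucine diet, where 11.8% fell and 9.6% rose, while 0 passed in the diet and interaction comparisons. Insr, the insulin receptor, fell by 0.95 (adjusted p = 3.87e-05) and 0.86 (adjusted p = 5.12e-05). Ppara, a nuclear receptor of the fasting response, fell by 1.31 (adjusted p = 0.000386) and 1.77 (adjusted p = 2.27e-05), and Irs2, an insulin receptor substrate, fell by 2.04 on the control diet (adjusted p = 0.000857). Atf4, the transcription factor of the amino acid response, rose by 1.34 on the low isoleucine diet (adjusted p = 2.35e-05), where Foxo1 fell by 0.97 (adjusted p = 0.000382). Genes are named separately for each diet, by smallest adjusted p. A value given for 1 diet alone therefore does not show that the diets differ.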

How the data were processed

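Poly-A enriched, stranded libraries of 16 mouse livers were sequenced, and the lanes of each sample were merged before expression estimation, per the labels' protocols. Per the file headers, the authors deposited expected counts from RSEM, 1 value per gene and sample, of which 10.2% are not whole numbers. R 3.5.3, limma and edgeR are the tools listed in the submitters' processing notes. No aligner, annotation or build is named in the sources used here. The authors also deposited 2 tables of diet comparisons with p-values, log2 fold changes, mean log2 CPM and the F statistic, used as a score, per the file headers.

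Expected counts, rounded to integers, were analysed with edgeR 4.0.16 in R 4.3.3, and with limma 3.58.1 and DESeq2 1.42.0 as alternatives. Of 51912 identifiers, 51633 matched a symbol. The filterByExpr function (minimum count 10, minimum total 15) kept the genes tested. After TMM scaling a robust quasi-likelihood model of 4 group means was fitted over all 16 libraries, and p-values were adjusted by Benjamini-Hochberg over 14920 genes in each of 6 contrasts. The standard error was obtained from the log2 fold change and its F statistic. Colours of the heat map use log2 CPM with a prior count of 2. Members and lists were chosen with earlier results of these data known. Values in every library are given for called members, at most 16 by smallest adjusted p, and at most 4 called genes of each other list are named per contrast. On simulated counts with 200 changed genes, edgeR recovered 64% of 2-fold changes for diet in fasted livers (14702 genes), 68% in refed livers (14698 genes), 72% and 76% for refeeding on the control (14709 genes) and low isoleucine diets (14701 genes), 38% for the interaction (14693 genes) and 94% for the average (14681 genes). At 1.5-fold the shares were 22%, 20%, 26%, 16%, 4% and 50%. The changed genes were drawn from those with a mean of at least 1 CPM. False calls were 9 of 99 for diet in fasted livers, 3 of 96 in refed livers and 3 of 99 for each refeeding comparison. They were 3 of 66 for the interaction and 1 of 125 for the average. Precision depends on the spread between the 4 libraries of a group as well as on total counts (24368656 to 34002955). Alternatives were other scalings, filters and tests, a fit of the compared groups only, a block by replicate mark, a fit without Mup, mitochondrial and Alb genes, and removal of each library.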

Additional observations from a re-analysis of the deposited data

Results flagged for a closer look

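Of 144 combinations of gene and group, 12 had 1 library far from the other 3, and chance flags about 1 in 20 groups. Control refed library 4 was the far library in 5 of them. There Tat stood at 1554 CPM (the others at 741 to 840), Hgd at 941 CPM (630 to 653), Acmsd at 52.8 CPM (7.48 to 11.1) and Hal at 418 CPM (163 to 182), all high, and Ido2 at 37.2 CPM was low (54.8 to 56.9).

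In the same group Hpd was low in library 3, at 1453 CPM (1956 to 2008), and Tdo2 was low in library 2, at 1201 CPM (1423 to 1452). In the low isoleucine refed group library 4 was high for Gpt2, at 929 CPM (634 to 659), Pcbd1, at 187 CPM (148 to 154), and Sds, at 45.9 CPM (23.0 to 26.5), and library 1 was high for Uroc1, at 335 CPM (261 to 268). Haao was low in low isoleucine fasted library 1, at 82.3 CPM (121 to 128).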

How the results depend on the processing

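Of the 23 calls of a member in a comparison, all 23 kept their sign under every alternative tried and 11 stayed past the threshold in each: Got1, Glud1 and Tdo2 on both diets, Sds and Cdo1 on the control diet, Kynu and Agxt2 on the low isoleucine diet and Afmid averaged over feeding states. The number of members called on refeeding was 11 on the control diet, 6 with library size alone, 5 with only the compared groups fitted and 5 to 13 with 1 library left out. On the low isoleucine diet it was 10, and 5 to 12 with 1 library left out. For diet in fasted livers it was 1, 3 by the DESeq2 Wald test and 0 to 2 with 1 library left out. In refed livers it was 0, 1 by the DESeq2 Wald test and 0 to 1 with 1 library left out. Averaged over feeding states it was 1, 2 with library size alone, 3 by the DESeq2 Wald test and 1 to 3 with 1 library left out. The interaction gave 0 in every setting, and the fit of the compared groups was not run for it or for the average, which use all 4 groups.

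The marks that recur across groups in the labels are not stated to pair animals. Libraries of the same mark correlated from -0.325 to 0.323 in their deviations (24 pairs, median 0.0311, against -0.0243 for different marks), and 6 of 16 correlated best with their own mark. A replicate block by mark gave 11 calls on the control diet, 9 on the low isoleucine diet, 1 and 0 for diet in fasted and refed livers, 2 for the average and 0 for the interaction. With 4 libraries a group, a gene that did not pass is not shown to be unchanged.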
